A study of Mus musculus with 8 samples.

Results

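Fga, Fgb and Fgg, which encode the chains of fibrinogen, were examined together with 7 further genes whose products act in clotting or are made beside the clotting factors in liver: F2, F5, F10, Plg, Serpinc1, Serpind1 and Itih3. All 10 were chosen by name, with earlier results of these data known. Each was matched through its Ensembl gene ID to 1 of the 29639 entries of the mRNA table. The embryos were wild type (WT), or carried 3 polyadenylation cassettes in the promoter of Gtl2 (Meg3), at the Dlk1-Dio3 imprinted domain, on the paternal allele alone (PKI), on the maternal allele alone (MKI) or on both alleles (HOMO). The tissue is labelled embryo, with no dissected part named, at embryonic day 12.5 per the design text, while the sample titles read E12.5 for WT, E12.6 for PKI, E12.7 for MKI and E12.8 for HOMO, so that genotype and the day in the title cannot be told apart. The number of founder lines, litters or embryos behind each genotype is not stated in the labels. The labels describe 2 samples per genotype, but the table holds 1 column for each, so no difference below has a replicate check and none has a p-value.

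Levels are FPKM, fragments scaled to transcript length and to the fragments of the library, and the depth behind them is unknown. Differences are on the log2(FPKM + 0.5) scale, on which 1 is 2-fold and folds of low genes are understated. Of the 10 genes 9 reached 1 FPKM in at least 2 columns, as 13279 genes did in all, and F5 did not. The MKI column stood apart from the rest of the table: Pearson's r between log2 columns over those 13279 genes, which are not independent replicates, was 0.864 to 0.882 for MKI against each other column and 0.961 to 0.975 among WT, PKI and HOMO. Y-linked genes (4 looked at) had no signal in the WT column but reached 7.12 to 29.7 FPKM in every knock-in column, so that male RNA was seen only in the latter.

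Clotting ends when thrombin, cut from prothrombin by activated factor X with factor V as its cofactor, trims fibrinogen to fibrin. Antithrombin and heparin cofactor II stop thrombin, and plasmin, cut from plasminogen, dissolves the fibrin mesh. Hepatocytes secrete nearly all of these proteins, and in the mid-gestation mouse embryo the liver bud has begun to make them while it is also the main site of blood formation. Yolk sac endoderm makes many of the same proteins. In such bulk RNA, fewer liver cells and less RNA per liver cell cannot be told apart.

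The fibrinogen genes lie side by side on chromosome 3, from 83007724 to 83049863 (GRCm38), a stretch of 42.1 kb in which Fgg and Fga are read on the plus strand and Fgb on the minus strand. Their promoters are shown because the chains must be made together and the 3 genes are neighbours. Each line gives the 250 bases before the RefSeq start (RefSeq, GRCm38.p6), 5′ to 3′ on the strand of the gene, at chr3:83007474-83007723 for Fgg, chr3:83025903-83026152 for Fga and chr3:83049864-83050113 for Fgb. Capitals mark matches, on either strand, to the letters named after the sequences and to no others. The HNF1 half-site GTTAAT was planned but not searched for, so any match to it is left in small letters.
Fgg: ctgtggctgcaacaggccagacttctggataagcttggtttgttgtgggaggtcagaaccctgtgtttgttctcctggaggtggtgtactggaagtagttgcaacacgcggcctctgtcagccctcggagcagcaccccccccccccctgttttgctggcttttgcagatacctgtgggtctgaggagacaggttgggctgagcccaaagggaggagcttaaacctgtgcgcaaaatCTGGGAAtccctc
Fga: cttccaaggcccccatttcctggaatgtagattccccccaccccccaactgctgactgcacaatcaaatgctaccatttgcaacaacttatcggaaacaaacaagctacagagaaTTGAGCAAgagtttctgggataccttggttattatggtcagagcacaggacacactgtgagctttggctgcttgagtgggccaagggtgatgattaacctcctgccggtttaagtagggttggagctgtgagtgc
Fgb: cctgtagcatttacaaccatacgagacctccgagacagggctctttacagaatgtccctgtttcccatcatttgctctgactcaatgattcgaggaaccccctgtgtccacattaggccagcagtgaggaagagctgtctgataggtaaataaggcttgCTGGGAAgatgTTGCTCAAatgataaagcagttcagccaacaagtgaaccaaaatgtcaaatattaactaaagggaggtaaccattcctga

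TTGCNNAA, a C/EBP site, was found in 2 of the windows, at 135 to 128 bases before the start of Fga and 80 to 73 before that of Fgb. CTGGGAA, the core of the element through which interleukin-6 acts on acute-phase genes, lay 13 to 7 bases before the start of Fgg and 91 to 85 before that of Fgb. Over the 9 genes with a promoter in the table each of these was found in 2, and in 9.56% and 9.10% of all 32851 promoter windows of this length. CAAAGTCC (HNF4) and TATAAA (the TATA box) were in 0 of the 9 windows, and in 1.20% and 12.4% of all. No 2 of the matches overlap. A match is a description of the letters only.

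The chains of fibrinogen were lowest in PKI and highest in MKI. Fga, the alpha chain, stood at 7.19 FPKM in WT and 2.29 in PKI, with 10.4 in MKI and 7.83 in HOMO. Fgb, the beta chain, stood at 5.15 FPKM in WT and 2.08 in PKI, with 9.30 in MKI and 5.44 in HOMO. Fgg, the gamma chain, stood at 7.35 FPKM in WT and 4.01 in PKI, with 13.01 in MKI and 7.53 in HOMO. HOMO thus lay within 10% of WT for every chain (109%, 106% and 102.5% of WT for Fga, Fgb and Fgg), PKI held 31.9%, 40.4% and 54.6%, and MKI 144%, 181% and 177%. The log2 differences from WT in PKI were -1.46 for Fga, -1.13 for Fgb and -0.80 for Fgg, of which the last did not pass 2-fold. Summed over the chains the level was 19.7 FPKM in WT and 8.39 in PKI, with 32.7 in MKI and 20.8 in HOMO.

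Because FPKM is per length, the chains can be set against each other within a column. Fga, Fgb and Fgg made up 36.5%, 26.2% and 37.3% of the summed level in WT and 37.7%, 26.2% and 36.2% in HOMO. In PKI the balance leaned to Fgg, at 27.3%, 24.8% and 47.9%, and in MKI it was 31.7%, 28.5% and 39.8%. The ratio of Fgg to Fga was 1.02 in WT, 0.961 in HOMO, 1.26 in MKI and 1.75 in PKI. Plrg1, a splicing factor gene and the next one beyond Fgb, stood at 36.3 FPKM in WT and 38.4 in PKI, with 43.6 in MKI and 33.1 in HOMO, and Rbm46, the nearest gene past Fgg that passed the filter, at 2.79, 3.61, 3.94 and 2.21. Neither was lower in PKI than in WT, while Dchs2, a cadherin gene beyond Plrg1, was at 1.51 FPKM in WT and 0.848 in PKI, a difference of -0.58.

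**Figure D1:**
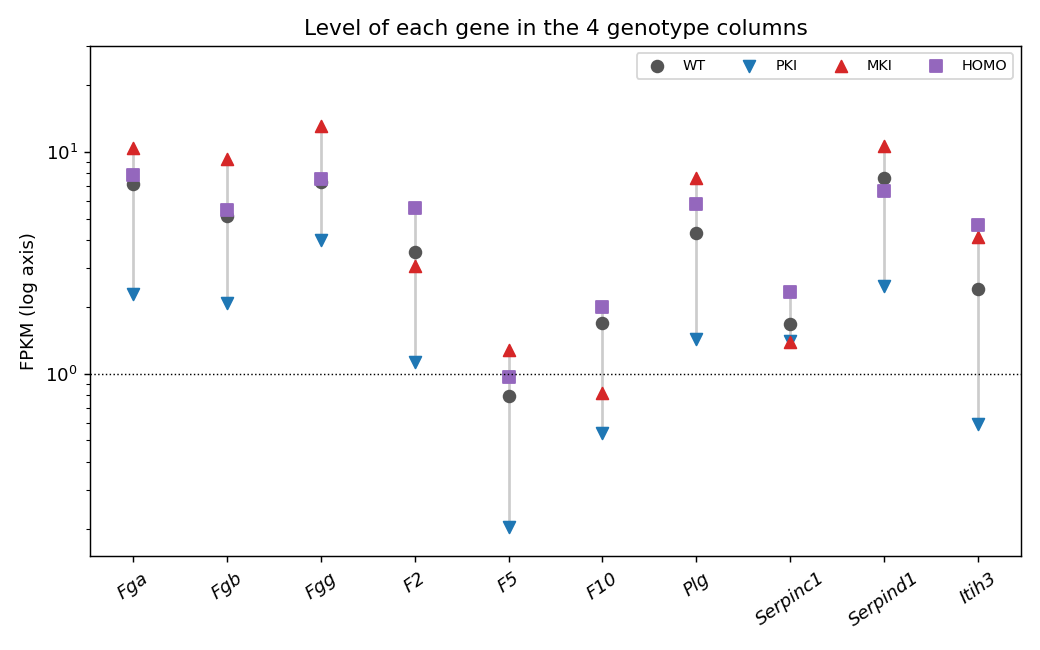
Level of each of the 10 genes (horizontal axis) in FPKM on a log axis, with 1 point for each genotype column and a dotted line at 1 FPKM. The PKI point is the lowest for 9 genes, and the top point is MKI for 6 genes and HOMO for 4. Of all 13279 kept genes 21.4% were lowest in PKI, 38.3% were highest in MKI and 22.6% were highest in HOMO.

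Among the genes that generate thrombin, the order of the columns was different at the top. F2, prothrombin, stood at 3.55 FPKM in WT and 1.13 in PKI, with 3.06 in MKI and 5.58 in HOMO. F10, factor X, stood at 1.68 FPKM in WT and 0.539 in PKI, with 0.821 in MKI and 2.00 in HOMO. Both were lowest in PKI, at 31.9% and 32.0% of WT, and highest in HOMO, at 157% and 118%, while MKI lay below WT at 86.1% and 48.8%, unlike the fibrinogen chains. F5, the cofactor factor V, stood at 0.795 FPKM in WT and 0.203 in PKI, with 1.28 in MKI and 0.961 in HOMO, which is the order of the chains at a level below the filter. The log2 differences from WT in PKI were -1.31 for F2, -1.07 for F10 and -0.88 for F5.

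The inhibitors of thrombin differed from each other in PKI. Serpind1, heparin cofactor II, had the highest WT level of the 10 genes, and stood at 7.59 FPKM in WT and 2.48 in PKI, with 10.6 in MKI and 6.68 in HOMO. Serpinc1, antithrombin, stood at 1.67 FPKM in WT and 1.40 in PKI, with 1.39 in MKI and 2.34 in HOMO. The log2 difference from WT in PKI was -1.44 for Serpind1 and -0.19 for Serpinc1, the smallest of the 10. Serpinc1 was also the only 1 of the 10 that was not lowest in PKI, by a margin of under 1% (MKI against PKI, log2 difference -0.01, and 0.25 under quantile normalization). The ratio of F2 to Serpinc1, an enzyme precursor to its inhibitor, was 2.13 in WT and 0.806 in PKI, with 2.19 in MKI and 2.38 in HOMO.

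Plg, plasminogen, stood at 4.30 FPKM in WT and 1.44 in PKI, with 7.64 in MKI and 5.83 in HOMO. Itih3, a heavy chain that is joined to the inhibitor bikunin and stabilises hyaluronan matrix, and is not itself a clotting factor, stood at 2.41 FPKM in WT and 0.594 in PKI, with 4.13 in MKI and 4.66 in HOMO. Itih3 had the lowest share of WT in PKI (24.6%) and the highest in HOMO (193%). Serpinf2, the main inhibitor of plasmin, is on a list below; the ratio of Plg to Serpinf2 was 0.222 in WT, 0.252 in PKI, 0.255 in HOMO and 0.754 in MKI.

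PKI against WT addresses an insertion on the paternal copy alone. All 10 genes were below WT, and 7 of the 9 that passed the filter were more than 2-fold lower, Fgg and Serpinc1 being the others. Over all 13279 genes 1.45% were 2-fold lower and 0.7% higher (1.01% and 0.964% under quantile normalization). Because the 10 genes were chosen with earlier results of these data known, that contrast describes the list and tests nothing. The median difference of the 9 was -1.31, with a range from -1.46 to -0.19, and that of all genes was -0.07. PKI was the lowest column for 9 of the 10, and for 21.4% of all genes.

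HOMO embryos carry the same paternal insertion as PKI and a maternal one besides, and their column did not show the PKI levels. Against WT none of the 9 genes passed 2-fold in HOMO, where 0.67% of all genes were 2-fold higher and 0.783% lower. The median was 0.19 (range -0.17 for Serpind1 to 0.83 for Itih3), beside -0.06 for all genes. Set directly against PKI, HOMO was higher for all 10 genes and 2-fold higher for 7 of the 9, with a median of 1.27 (range 0.58 to 2.24), where 1.55% of all genes were 2-fold higher and 1.32% lower. The largest differences were in Itih3 (4.66 against 0.594 FPKM), F2 (5.58 against 1.13) and Plg (5.83 against 1.44). The comparisons of PKI with WT and of HOMO with PKI share the PKI column.

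MKI lay above WT for 7 genes and below it for F2, F10 and Serpinc1, and none of the 9 passed 2-fold. The median was 0.50, with a range from -0.73 for F10 to 0.79 for Fgb, and that of all genes was -0.11. In that comparison 19.1% of all genes were 2-fold lower and 1.22% higher (11.01% and 4.94% under quantile normalization). Under quantile normalization, which moves the median of all genes by 0.25 in MKI against WT, Fgb, Plg and Itih3 came to lie past 2-fold (1.09, 1.09 and 1.10) and F2 and Serpinc1 above WT (0.24 and 0.23). Against PKI, MKI was 2-fold higher for 7 of the 9 (median 1.899), F10 and Serpinc1 being the others, where 2.55% of all genes were higher and 16.6% lower (5.61% and 11.002% under quantile normalization). Between HOMO and MKI none of the 9 passed 2-fold (median -0.36, range -0.75 for Fgg to 0.92 for F10), where 19.7% of all genes were 2-fold higher in HOMO and 3.64% lower (12.98% and 8.23% under quantile normalization). These 3 comparisons share the MKI column.

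**Figure D2:**
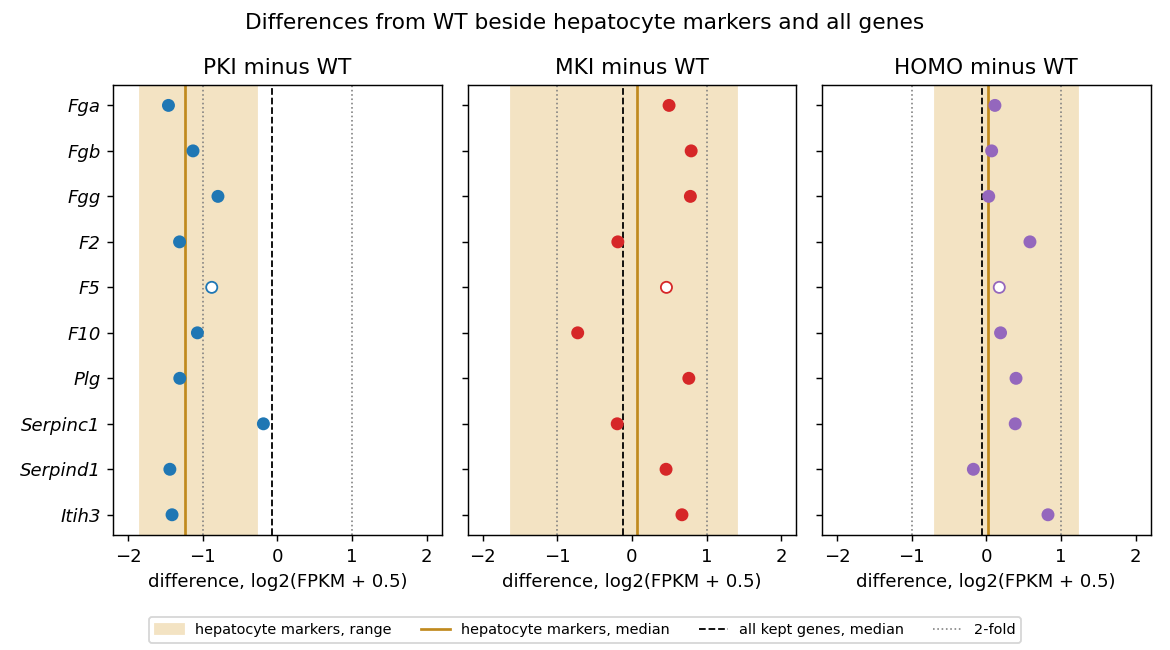
Difference from WT on the log2(FPKM + 0.5) scale (horizontal axis) of each gene in PKI, MKI and HOMO; the open point is F5, below the filter, the shaded band and its line are the range and median of 19 hepatocyte markers, the dashed line is the median of all 13279 genes and dotted lines mark 2-fold. In PKI 7 filled points lie left of the 2-fold line, and in MKI and HOMO all points lie inside the 2-fold lines.

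Markers of the cells that make these proteins differed in the same columns. Of 26 hepatocyte markers outside coagulation 19 passed the filter. In PKI all 19 were below WT (median -1.24), and 14 of them were more than 2-fold lower, where 1.45% of all genes were. Their summed level over all 26 was 826 FPKM in WT and 306 in PKI, with 1345 in MKI and 1006 in HOMO. Apoc3 was listed at 0 in WT, PKI and MKI, Fetub in every knock-in column, Fgl1 in PKI and MKI and Mat1a in MKI. Ambp, the precursor of bikunin, was at 16.0 FPKM in WT and 4.13 in PKI, and transferrin (Trf) at 85.1 and 24.1. Apoh, a phospholipid-binding plasma protein, was at 2.27 and 0.335 FPKM, and fetuin-A (Ahsg) at 5.94 and 1.53. The median of the 9 clotting genes less that of these markers was -0.06 in PKI against WT, 0.16 in HOMO against WT and 0.00 in HOMO against PKI. In MKI against WT it was 0.44, where the markers themselves ran from -1.62 for Apom to 1.40 for Alb. In that comparison 4 of the 19 markers were 2-fold lower and 1 higher, beside 19.1% and 1.22% of all genes. With Alb alone in place of the markers the sign turned, to -0.91 in MKI against WT and -0.15 in HOMO against WT, and HOMO against PKI came to -0.40.

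Albumin is the main plasma protein of the liver. Alb stood at 205 FPKM in WT and 81.1 in PKI, with 542 in MKI and 259 in HOMO. The summed fibrinogen level was 9.62% of that of Alb in WT, 10.3% in PKI and 8.02% in HOMO, and 6.02% in MKI. In PKI fibrinogen and albumin were thus lower by nearly the same factor.

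Cells that share the fetal liver, or that carry clotting proteins, were looked at by their own lists. All 13 measured definitive erythroid genes were below WT in PKI, 9 of them 2-fold (median -1.17), among them Gata1 (5.49 against 1.70 FPKM) and Hemgn (8.68 against 2.93), and their summed level was 215, 114, 225 and 226 FPKM in the columns WT, PKI, MKI and HOMO. Of 12 megakaryocyte and platelet genes 7 passed the filter, all below WT in PKI and 5 of them 2-fold (median -1.17), including Pf4 (11.4 against 4.78 FPKM) and Itga2b, the platelet receptor subunit that binds fibrinogen (2.83 against 0.726). Their summed level was 35.2, 13.1, 30.2 and 52.2 FPKM. Of all genes 1.45% were 2-fold lower in PKI than in WT. Macrophage genes were not lower as a list in PKI (8 measured, median -0.01, none past 2-fold, summed 25.7 and 27.0 FPKM). Endothelial genes were lower by a median of -0.44 (11 measured, none past 2-fold, summed 85.9 and 64.6 FPKM over all 12 listed). The endothelial gene Stab2, below the filter, went the other way, at 0.631 FPKM in WT and 4.24 in PKI. In MKI against WT the medians were 0.25 (erythroid), -0.52 (megakaryocyte), -0.72 (macrophage) and 0.17 (endothelial). There 3, 3, 2 and 3 genes of these lists were 2-fold lower and none higher, where 19.1% of all genes were lower.

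The defining genes of visceral yolk sac endoderm were low throughout. Of 8 such genes only Lrp2, which other epithelia also express, passed the filter, Amn was listed at 0 in PKI and MKI and at 0.286 and 0.169 FPKM in WT and HOMO, Apoa4 was listed at 0 in PKI and Entpd2 in MKI, and the summed level was 5.44, 2.88, 3.55 and 4.89 FPKM in the columns as ordered above. Of 7 trophoblast genes only Prl3b1 passed the filter (summed 1.21 to 1.91 FPKM; Ctsq was listed at 0 in all columns but PKI, Prl3d1 in WT and MKI, and Prl8a9 in HOMO). Liver mesenchyme genes, many of them also neural, had a median of -0.24 in PKI, with Reln alone past 2-fold (12.96 against 4.24 FPKM), and summed to between 60.6 and 73.3 FPKM. In MKI the median of the mesenchyme genes was -0.80, with 2 of 6 measured genes 2-fold lower, where 19.1% of all genes were. The part that the amount of any of these cells has in the levels of the clotting genes was not tested.

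Differences in the table also ran with the length of genes. Across 12333 genes with a RefSeq span, which share the 4 columns and are not independent, Spearman's rho between span and the log2 difference was -0.279 in PKI against WT, 0.342 in MKI against WT and -0.154 in HOMO against WT. The fibrinogen genes are short, at 7.33 to 7.62 kb, and the 1233 genes of 4.64 to 8.52 kb had a median of -0.61 in MKI against WT and 0.02 in PKI against WT. Fga, Fgb and Fgg, at 0.50, 0.79 and 0.78 in MKI, were therefore 1.11, 1.40 and 1.39 above genes of like span, and in HOMO against MKI they differed from them by -1.03, -1.37 and -1.40. In PKI the difference from genes of like span was -1.48, -1.15 and -0.81, close to the plain difference. Plg, at 40.8 kb, was 0.71 above genes of like span in MKI, and F10, at 19.4 kb, was -0.52 from them. F2 and Serpinc1, which lay below WT in MKI, were 0.0136 and 0.0052 above genes of like span. For the lists of cell types, pathway genes and transcription factors, the 2-fold counts in MKI were not set against genes of like span.

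**Figure D3:**
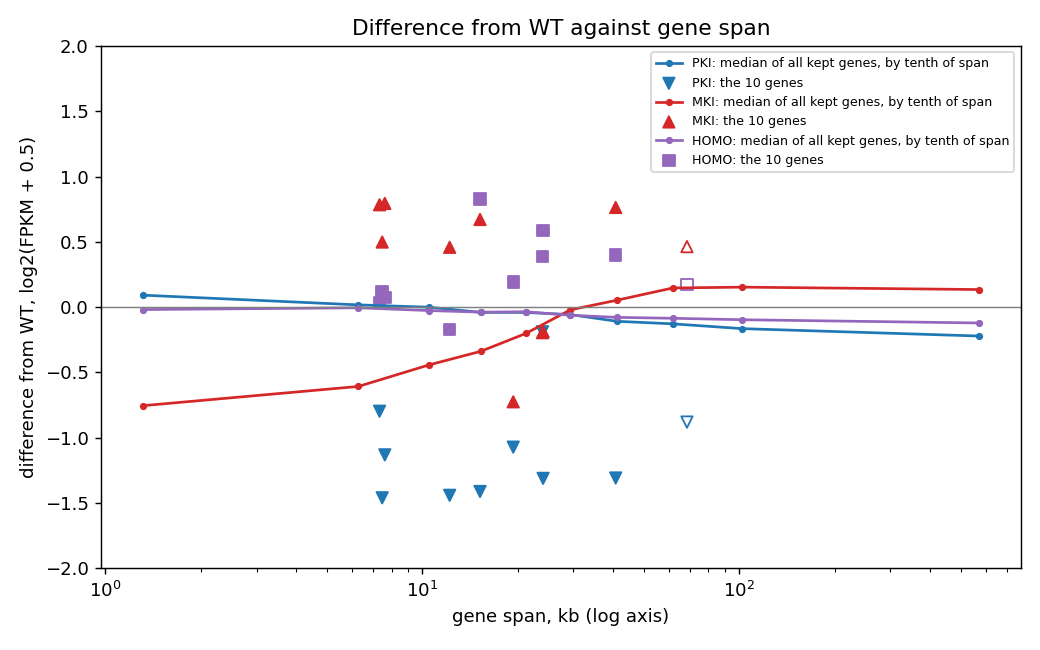
Difference from WT on the log2(FPKM + 0.5) scale against gene span in kb on a log axis: lines join the medians of all kept genes in 10 bins of span, and larger points are the 10 genes (open for F5). The MKI line climbs from -0.75 for the shortest genes to 0.13 for the longest, while the PKI points lie far below the PKI line at every span except for Serpinc1.

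The rest of the pathway was read from 5 lists of 53 genes, of which 32 passed the filter. In PKI 5 of the 32 were 2-fold lower than WT and none higher, and these were Kng1, Proc, Serpinf2, Itih2 and Ambp, all secreted by the liver (Itih2 and Ambp are also among the hepatocyte markers). In MKI 2 of the 32 were 2-fold lower, Proc and the thrombin receptor gene F2rl3, and none higher, where 19.1% of all genes were 2-fold lower. In HOMO none passed 2-fold against WT, where 0.67% of all genes were 2-fold higher and 0.783% lower. Against PKI 5 were 2-fold higher in HOMO, where 1.55% of all genes were.

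Of 13 other liver-made zymogens and cofactors only 3 passed the filter, and factor VII, IX, XI and XII genes (F7, F9, F11 and F12) lay between 0.0269 and 1.10 FPKM in every column. Kng1, the kininogen from which bradykinin is cut, stood at 4.55 FPKM in WT and 1.53 in PKI, with 6.05 in MKI and 4.45 in HOMO, lowest in PKI and highest in MKI like the fibrinogen chains, with HOMO just below WT. Proc, protein C, which inactivates factor V, stood at 1.55 FPKM in WT and 0.348 in PKI, with 0.378 in MKI and 1.18 in HOMO, and was low in both heterozygous columns. Pros1, its cofactor protein S, which many cells make, stood at 5.97, 5.51, 8.60 and 6.02 FPKM in the same order.

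Among 11 other inhibitors 7 passed the filter. Serpinf2, alpha-2-antiplasmin, stood at 19.3 FPKM in WT and 5.69 in PKI, with 10.1 in MKI and 22.8 in HOMO, with a log2 difference of -1.68 in PKI. Serpina10, the inhibitor that works with protein Z, was at 1.47, 0.516, 1.18 and 0.996 FPKM, and Cpb2, the carboxypeptidase that protects fibrin from plasmin, at 2.07, 1.16, 3.81 and 1.66. The FPKM of Serpina10 alone was more than 2-fold below WT in PKI, where its difference on the log2(FPKM + 0.5) scale was -0.95. A2m, a broad protease inhibitor, was at 3.05, 1.69, 2.02 and 1.92. In the inter-alpha-trypsin inhibitor family Itih2, a second heavy chain, was at 18.7, 5.60, 26.6 and 17.9 FPKM, while Tnfaip6, which transfers heavy chains to hyaluronan, was at 6.37, 9.99, 6.79 and 6.78 and the hyaluronan synthase gene Has2 at 6.07, 6.15, 9.62 and 5.40.

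The lists of pathway genes made in many tissues had medians near 0 in PKI against WT, which was not tested against the members, while single genes of these lists lay farther from WT in MKI (F2rl3 at -1.24 and Ggcx at -0.95). Of 16 activators, receptors and vessel partners 11 passed the filter, and their median in PKI was -0.01, with 5 above WT, 6 below and none past 2-fold. That rests on the pseudocount for F2rl3 (1.03 FPKM in WT and 0.482 in PKI), whose FPKM alone differ by more than 2-fold. Vwf, the platelet adhesion protein of vessel walls, was at 3.06, 1.56, 1.74 and 4.99 FPKM in that order of columns, and Anxa2, a surface partner for plasminogen activation, at 62.2, 97.4, 53.7 and 67.4. Plgrkt, a plasminogen receptor, was at 12.01, 14.9, 19.8 and 13.1, and F2rl3 at 1.03, 0.482, 0.145 and 1.09. All 6 genes of the vitamin K cycle and of factor transport passed the filter, with a median of 0.06 in PKI and none past 2-fold in any column against WT. They included Ggcx, the carboxylase that completes F2 and F10 proteins (10.5, 8.18, 5.21 and 8.98 FPKM), Vkorc1l1 (18.8, 17.4, 26.0 and 18.6), and Lman1 and Mcfd2, which carry factor V out of the endoplasmic reticulum (38.7, 36.5, 52.0 and 34.3 FPKM for Lman1, and 15.5, 19.97, 16.6 and 17.7 for Mcfd2).

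**Figure D4:**
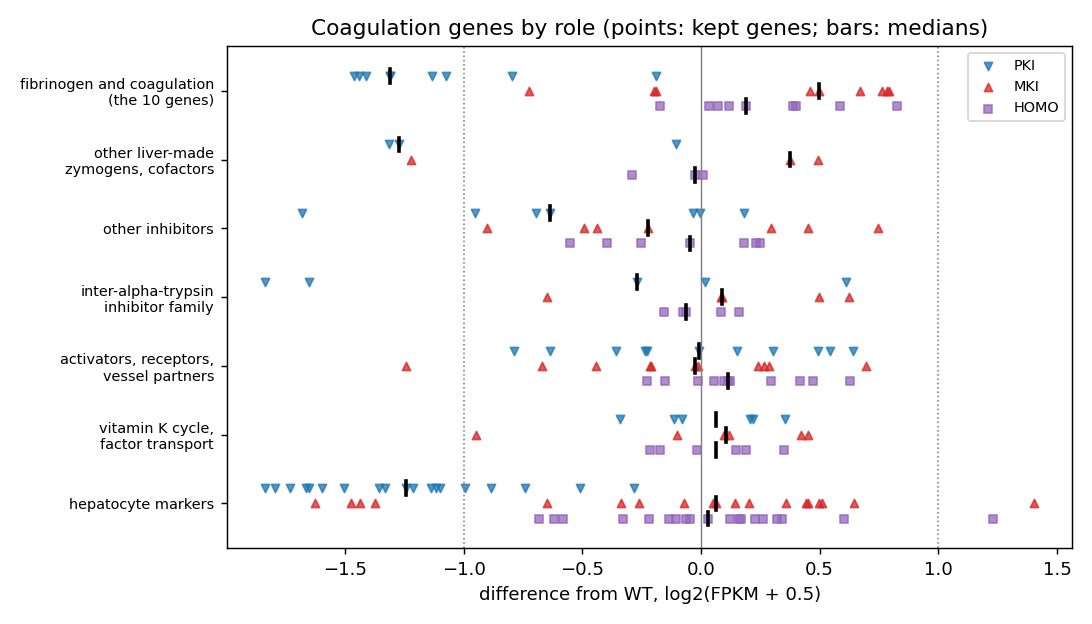
Difference from WT on the log2(FPKM + 0.5) scale (horizontal axis) of the kept genes in each role (rows), coloured by genotype, with black bars at the medians and dotted lines at 2-fold. In PKI the medians of the 10 genes (9 kept), of other liver-made zymogens and of hepatocyte markers lie at -1.31, -1.27 and -1.24, and those of vessel partners and of the vitamin K cycle at -0.01 and 0.06.

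Transcription factors of liver genes were read from a list of 17. Hnf4a, a main hepatocyte factor, stood at 2.53 FPKM in WT and 1.14 in PKI, with 2.07 in MKI and 2.44 in HOMO. Of 11 measured hepatic transcription factors none was past 2-fold from WT in PKI on the log2(FPKM + 0.5) scale (median -0.31). That rests on the pseudocount for Hnf4a and for Foxa2 (2.07 FPKM in WT and 0.906 in PKI), whose FPKM alone differ by more than 2-fold and whose differences on that scale are -0.88 and -0.87. In MKI, where 19.1% of all genes were 2-fold lower, 4 of the 11 were, namely Cebpa (1.95 against 0.221 FPKM), Gata4 (4.21 against 1.00), Cebpb (1.60 against 0.187) and Foxa2 (2.07 against 0.470). The share of genes 2-fold lower in MKI ran with gene span. It was 39.2% at 0.374 to 4.635 kb, 33.9% at 4.636 to 8.518 kb and 3.57% at 136.008 kb and above. These 4 factors, and Socs3 below, were not set against genes of like span. Whether their low levels in MKI go beyond the trend with span was therefore not tested. The interleukin-6 route to fibrinogen was read from 8 genes. Il6 was listed at 0 in all columns and Il6ra lay at 0.153 to 0.261 FPKM, while Socs3, a target of that signal, was at 2.63, 3.06, 0.488 and 2.84 FPKM in the usual order, Stat3 at 8.82, 6.25, 7.27 and 9.49, Il6st at 21.6, 19.1, 26.6 and 21.5, and Nr3c1 at 5.47, 5.80, 8.72 and 5.03.

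MicroRNAs known to act on fibrinogen were read from the small-RNA table, because 1 of them is made from the domain that carries the insertion. In human liver cells miR-409-3p and the miR-29 family are reported to lower fibrinogen, and miR-409 lies in the maternal microRNA cluster of the domain. Their mature sequences (RefSeq, GRCm38.p6) are given with the seed, bases 2 to 8, in capitals; the 3 members of the miR-29 family share a seed, and miR-409-3p has another.
miR-409-3p: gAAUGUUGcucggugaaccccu
miR-29a-3p: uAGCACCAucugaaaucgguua
miR-29b-3p: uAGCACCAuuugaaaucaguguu
miR-29c-3p: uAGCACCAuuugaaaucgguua

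miR-409-3p (chromosome 12, 109743204 to 109743225) stood at 5463 RPM (reads scaled to the total of the library) in WT and 5514 in PKI, with 230 in MKI and 163 in HOMO. MKI thus held 4.21% of the WT level (exact 95% interval 4.02 to 4.40%, for counting error only) and HOMO 2.98% (2.82 to 3.15%). Of 505 microRNAs 17.2% lay 2-fold or more below WT in MKI, and in HOMO 17% did. miR-29a-3p stood at 38.4 RPM in WT and 37.7 in PKI, with 54.2 in MKI and 463 in HOMO, which in HOMO is 1204% of WT (interval 1074 to 1353%), where 2.18% of microRNAs were 2-fold higher (2.57% in MKI). Scaled to microRNAs outside the domain, the log2(RPM + 0.5) difference of miR-29a-3p from WT went from 0.49 to 0.29 in MKI. In HOMO it went from 3.57 to 3.37. miR-29b-3p (1.31, 1.09, 2.55 and 10.7 RPM) and miR-29c-3p (1.19, 1.19, 1.97 and 5.61 RPM) lay below the level of 10 RPM in 2 columns asked of microRNAs. The summed fibrinogen level was lowest in PKI (42.6% of WT), where miR-409-3p and miR-29a-3p were at 101% and 98.2% of WT. It was highest in MKI (166%), where miR-409-3p was at 4.21% of WT and miR-29a-3p at 141%. The HOMO column, where both microRNAs were farthest from WT, had a summed fibrinogen level of 106% of WT. No relation between these microRNAs and fibrinogen was tested.

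The liver microRNA miR-122-5p, made almost only by hepatocytes, stood at 3587 RPM in WT and 2695 in PKI, with 3979 in MKI and 4869 in HOMO. PKI was the lowest column, as for the clotting genes, at 75.1% of WT. miR-192-5p, of liver and gut, stood at 1457, 1224, 1862 and 2462 RPM in the same order, and its partner miR-194-5p at 183, 204, 215 and 247. These levels depend on the total used for scaling. Scaled to microRNAs outside the domain, the log2(RPM + 0.5) difference of miR-122-5p in MKI against WT went from 0.15 to -0.06, and with TMM factors to 0.23. In HOMO it went from 0.44 to 0.24 and 0.37, and PKI stayed lowest at -0.43 and -0.41. For miR-192-5p and miR-194-5p in MKI the first scaling gave 0.15 and 0.03, from 0.35 and 0.23.

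Over the 4 columns, the genes most like the median profile of the 9 clotting genes, by Euclidean distance between log2 profiles centred on their own means and among 12614 named genes, were Kng1 (distance 0.263), Cpeb4 (0.318), Rbfox1 (0.320), Epb42 (0.320) and Bhmt (0.373). Kng1 and Bhmt are liver genes, Epb42 is a red cell membrane gene, Cpeb4 binds RNA in many tissues and Rbfox1 is a splicing factor of neurons and muscle. Cpeb4 stood at 10.8 FPKM in WT and 6.21 in PKI, with 18.8 in MKI and 13.8 in HOMO, and Rbfox1 at 5.87, 2.76, 7.82 and 6.97. A profile of 4 single columns is matched by genes of several tissues.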

How the data were processed

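Embryo RNA of 8 samples in 4 groups was selected with oligo(dT) beads and sequenced as strand-marked paired ends, per the labels' protocols. The authors' tools, per the submitters' processing notes, include StringTie 1.3.4d, HISAT2 2.0.4, cutadapt 1.9, edgeR and DESeq2, with the build GRCm38. Not given in the sources used here are the role of each tool, the annotation release, the small-RNA library preparation and whether a column pools libraries. The deposited mRNA table names no unit in its header, and its values were read as FPKM, which StringTie writes. The deposited microRNA values are RPM by the authors. In the WT, MKI and HOMO columns 100% of values were whole multiples of 1 read to within 0.02 of a read, which gave 8405962, 8638401 and 8016848 reads; for PKI no reads were recovered.

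Of 29639 entries 22022 had a symbol through the Ensembl ID (40 entries sharing symbols were summed). Genes were kept at 1 FPKM or more in 2 columns and microRNAs at 10 RPM. Steps were run in Python 3.11.15 with pandas 2.3.3 and scipy 1.17.1 and tested on simulated data. The planned fit with replicates could not be made with 1 column per group, so differences are described by size (2-fold) with no p-value. RPM ratios carry exact conditional 95% intervals. The members and gene lists were chosen with earlier results of these data known. All 10 members were named; by rule, up to 4 kept genes of each list with the largest difference from WT could be named (not all are, for cell-type lists), plus coagulation genes past 2-fold. Alb, Apom, Hnf4a, Il6ra, the fibrinogen neighbours, the low factor genes and genes at 0 were named after their values were seen. Alternatives were pseudocounts of 0.1 and 1, no filter, 5 FPKM, quantile, TMM and median-of-ratios scaling and 1.5-fold. For microRNAs they were TMM factors and RPM over the microRNAs outside the domain. Chosen after seeing the data were a filter without MKI, differences less the median of genes of like span (10 bins), and an exact binomial test on recovered reads. Planned protein comparisons, the planned search of promoters for the HNF1 half-site and long non-coding transcripts were not analysed here.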

Additional observations from a re-analysis of the deposited data

Results flagged for a closer look

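The difference that goes with the paternal insertion had opposite signs on the WT and on the MKI background for 4 genes, each from single columns, and the difference between backgrounds was not tested. The share of all genes with opposite signs was not counted. In HOMO against MKI 19.7% of all genes were 2-fold higher and 3.64% lower, and in PKI against WT 0.7% and 1.45% were. F2 was -1.31 in PKI against WT and 0.77 in HOMO against MKI, which are 2.08 apart on the log2 scale. F10 was -1.07 and 0.92 (1.99 apart), Itih3 -1.41 and 0.16 (1.57 apart) and Serpinc1 -0.19 and 0.58 (0.77 apart). For Itih3 the sign in HOMO against MKI turned to -0.16 under quantile normalization and to -0.17 relative to genes of like span. Serpinc1 in PKI against WT was only -0.02 under quantile normalization. The fibrinogen chains and F5, Plg and Serpind1 were below 0 in both comparisons.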

How the results depend on the processing

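No paired analysis was possible because each genotype has 1 column that carries no replicate number, and for the same reason no replicate could be left out. No direction called by 2-fold turned under any alternative run. The number of genes 2-fold lower in PKI than in WT, 7 of 9, and 2-fold higher in HOMO than in PKI, 7 of 9, became 4 each where genes were kept at 5 FPKM, which leaves 5 of the 10 genes. Fgb and F10 in PKI against WT came inside 2-fold with a pseudocount of 1 (-0.998 and -0.80) and under quantile normalization (-0.997 and -0.93). A pseudocount of 1 also brought F10 in HOMO against PKI (0.961) and F2 in MKI against PKI (0.928) inside 2-fold, so that 6 genes were left in each. In MKI against WT the number 2-fold higher, 0 as reported, was 3 under quantile normalization and 4 relative to genes of like span, and a threshold of 1.5-fold gave 4 higher and 1 lower. In HOMO against MKI the number higher was 1 with a pseudocount of 0.1 (F10) and 2 at 1.5-fold, and the number lower was 4 relative to genes of like span and 3 at 1.5-fold. HOMO against WT had 2 higher at 1.5-fold.

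The median of the clotting genes less that of the hepatocyte markers moved as follows; for the changes other than those of construction (fewer genes, or Alb alone as the reference) the cause was not tested. For PKI against WT it was 0.0971 with a pseudocount of 1, 0.0860 under quantile normalization, 0.0901 relative to genes of like span and 0.0218 against Alb alone. For HOMO against PKI it was 0.39 with a pseudocount of 0.1, 0.22 with no filter, 0.0112 with TMM factors and -0.40 against Alb. For HOMO against WT it was -0.0687 at 5 FPKM and -0.15 against Alb. For HOMO against MKI it was -0.35 in the main setting, 0.0187 relative to genes of like span and 0.70 against Alb. Against Alb it was -0.91 for MKI against WT and -0.83 for MKI against PKI, beside 0.44 and 0.61 against the markers. Quantile normalization moved the median of all genes by 0.25 in MKI against WT, and TMM by 0.14; under the former 4.94% of all genes were 2-fold higher and 11.01% lower. Testing the recovered reads of single columns by an exact binomial test compares those columns and not the genotypes, and it called 392 microRNAs in MKI and 365 in HOMO against WT, where 100 and 97 were past 2-fold. With depth unknown for the mRNA table, no limit could be given for genes near 0.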
